A study of Mus musculus with 27 samples.

Results

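Expression in C2C12 cells carrying the Δpro#3 mutant of NFIA was compared with expression in cells carrying full-length NFIA at day 0, before adipocyte differentiation was induced. C2C12 is a mouse myoblast cell line that fuses into muscle fibres when serum is withdrawn. The comparison used 6 of the 27 samples of the series, the 3 libraries of each cell type at day 0, and all 24825 genes of the files entered. NFIA and Δpro#3 were both introduced by retrovirus with a FLAG tag, and Δpro#3 lacks the C-terminal end of the proline-rich transactivation domain. The cells were grown with 10% fetal bovine serum and penicillin/streptomycin, and the day 0 samples are labelled as untreated. The 3 control libraries of day 0 are given beside the result as the background without introduced NFIA, and the libraries of day 7, after a cocktail of isobutylmethylxanthine, indomethacin, dexamethasone, insulin, T3 and rosiglitazone, serve as a second set of samples. Each protein was expressed from a retroviral vector in C2C12 myoblasts. Whether the cells were a pool or a clone, and what the control cells carried, is not given in the sources used here.

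NFIA is one of 4 members of the nuclear factor I family, transcription factors that share an N-terminal DNA-binding domain and differ in their C-terminal transactivation domains. In fat cell precursors NFIA is known as an activator of the adipocyte gene programme with Pparg at its head, and as a repressor of the muscle programme with Myod1 at its head. Myoblasts express MyoD and Myf5, then myogenin, leave the cell cycle, and switch on the sarcomere genes. The comparison addresses which of the expression differences seen with full-length NFIA depend on the missing end of the protein.

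Nfia itself (chr4:97439425-97868605, NCBIM37) was checked first. Its FPKM, fragments scaled to transcript length and to the depth of the library, were 225, 249 and 250.2 in the NFIA libraries and 423, 398 and 397 in the Δpro#3 libraries, so the groups did not overlap and the mutant transcript was the more abundant. The log2 difference, which here always means Δpro#3 minus NFIA of log2(FPKM + 1), was 0.75 ± 0.54 (SE, n = 3 and 3, limma, adjusted p = 0.244). The control libraries had 0.879, 7.35 and 0.175 FPKM. Control replicate 2 thus stood apart, and since the fit shares its estimate of the spread with the controls, the same log2 difference of 0.75 had an adjusted p of 9.0e-04 by limma without that library. Reads from the introduced and the endogenous transcript were counted together. Every day 0 comparison between the mutant and the full-length protein is therefore one at a transcript level 1.68-fold higher in FPKM + 1 for the mutant.

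The 3 NFIA libraries held 11323688 to 25630237 fragments in genes, the smallest being replicate 3, the 3 Δpro#3 libraries 21909547 to 25924037 and the controls 23722429 to 27230965. Replicates differed by more than counting noise, with a chi-square of 1.55 to 4.67 per gene between libraries of a group. The labels do not say whether they came from separate cultures, so the p-values measure the spread between these samples, which may be technical. Control replicate 2 was also the highest of the 3 controls for 83 of the 136 genes called lower below, which touches the comparisons with the control and the shared estimate of the spread: Eln was at 0.0438, 1.40 and 0.00995 FPKM in the controls. Among the Δpro#3 libraries, Fabp4, the fatty acid carrier of fat cells, was uneven at 7.37, 0.478 and 4.53 FPKM.

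Of the 12105 genes tested at day 0, 112 were called higher and 136 lower with Δpro#3 than with NFIA (0.925% and 1.12% of the genes tested). A call needed an adjusted p under 0.05 and a difference of more than 3-fold in FPKM + 1. By adjusted p alone, 4043 genes (33.4%) were higher and 3866 (31.9%) lower, most by small amounts, and the median log2 difference over all genes tested was 0.01. None of the 248 called genes overlapped between the groups, as was so for 69.1% of all genes tested. In the words used below, "higher" and "lower" mean that the gene passed the adjusted p, and "called" that it also passed the fold. Each list count below is to be set beside the shares of all genes tested. These were 33.4% higher, 31.9% lower, 0.925% called higher and 1.12% called lower. The genes called higher were led by muscle genes and the genes called lower by genes of the extracellular matrix.

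**Figure D1:**
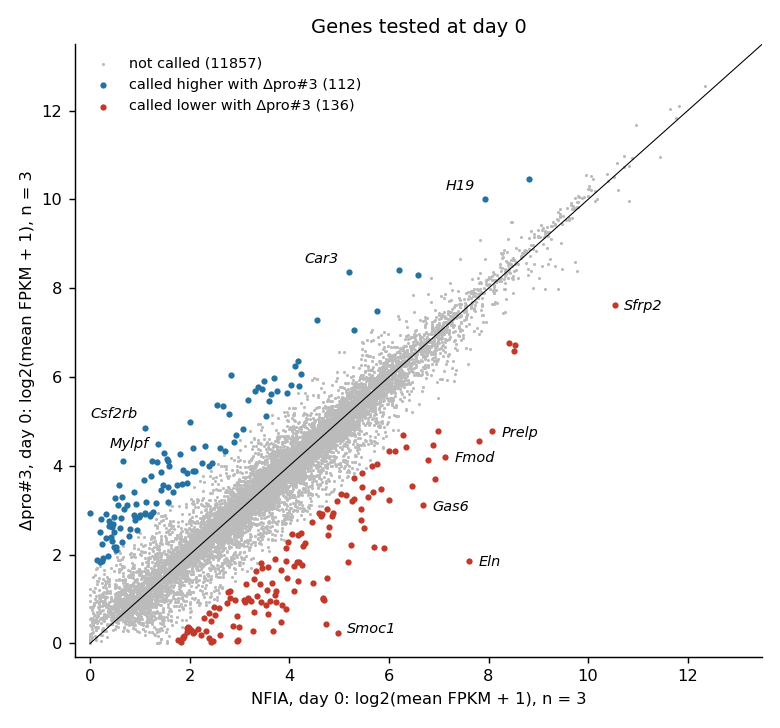
Mean expression of each of the 12105 tested genes in the 3 NFIA libraries (horizontal axis) and the 3 Δpro#3 libraries (vertical axis), as log2(mean FPKM + 1), with the line of equal expression. The 112 genes called higher (blue) lie above the line and the 136 called lower (red) below it, Eln being farthest from it.

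The called genes are placed here beside the control. The NFIA and Δpro#3 libraries that chose them also enter the comparisons with control, so the counts of this paragraph are a description from which nothing is read. Of the 112 genes called higher, 104 were lower in NFIA than in control cells by adjusted p, and of the 136 called lower, 131 were higher in NFIA than in control cells (limma, background 35.6% lower and 37.7% higher of all genes tested). Median expression of the genes called higher was 26.3 FPKM in control, 1.68 in NFIA and 11.5 in Δpro#3 cells, and that of the genes called lower was 1.02, 14.4 and 1.76 FPKM in the same order. All 3 Δpro#3 libraries lay between all control and all NFIA libraries for 58 of the genes called higher and 85 of those called lower. They lay above all control and NFIA libraries for 46 of the genes called higher, and below all of them for 28 of those called lower. Compared with control cells, Δpro#3 cells were by adjusted p above for 44 and below for 57 of the 112, with 11 that did not pass, and above for 77 and below for 28 of the 136, with 31 that did not pass (background 32.5% above and 29.7% below).

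Myod1, Myf5 and Myog, the central muscle regulators, were all higher with Δpro#3, but by unequal amounts and to unequal shares of the control level. Myod1, which encodes MyoD (chr7:53631844-53634462, NCBIM37), was at 17.5, 18.3 and 17.6 FPKM in the NFIA libraries and at 42.9, 40.0 and 42.2 with Δpro#3, against 40.9, 45.8 and 44.6 in the controls. The groups with NFIA and Δpro#3 did not overlap (log2 difference 1.18 ± 0.04, limma, adjusted p = 3.2e-09), whereas Δpro#3 and control did, with a difference of -0.07 (limma, adjusted p = 0.22). Myf5, the other myoblast determination factor, was called higher, from 2.60, 3.01 and 2.97 to 13.7, 13.6 and 12.7 FPKM, less than the 27.5 to 30.1 FPKM of the controls. Myog (chr1:136186581-136189124), encoding myogenin, the factor of the commitment to fuse, rose from 1.98, 1.77 and 2.15 FPKM with NFIA to 15.4, 17.9 and 15.5 with Δpro#3, a log2 difference of 2.54 ± 0.06 (limma, adjusted p = 1.6e-10). It remained far below the 168, 156 and 161 FPKM of the controls. So of these 3 genes the mutant libraries overlapped the controls for Myod1 alone.

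Of the 20 tested myogenic regulators, 10 were higher, 7 lower and 3 did not pass, and the 2 called were Myf5 and Myog. Msc, a repressor of MyoD, was higher (log2 difference 1.42) from a mean of 0.959 to 4.27 FPKM, and Smyd1, a muscle lysine methyltransferase of sarcomere assembly, from 0.0607 to 0.837 FPKM. Lower with Δpro#3 were Id1, an inhibitor of MyoD partners (84.1 to 48.2 FPKM), Hes1, a Notch effector (17.2 to 9.61 FPKM), and Pax7, the satellite cell factor (0.709 to 0.352 FPKM).

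Sarcomere genes were higher with Δpro#3 almost throughout. Of 38 tested, 35 were higher, 1 was lower (Cryab, a small heat shock protein, 164 to 96.0 FPKM) and 2 did not pass (Tpm3 and Csrp3). Those called were 11 higher and 0 lower, with a median log2 difference of 0.71 over the list against 0.01 over all genes. Acta1, skeletal α-actin, went from 1.37, 1.51 and 1.74 FPKM with NFIA to 15.3, 16.2 and 16.7 with Δpro#3, a log2 difference of 2.75 ± 0.05 (limma, adjusted p = 4.3e-11). Mylpf, the fast regulatory light chain, went from 1.98, 1.67 and 1.75 FPKM to 16, 21.1 and 18.2, and Myl1, the fast alkali light chain, from 0.527, 0.321 and 0.398 FPKM to 8.80, 8.94 and 8.17. The slow troponin I gene Tnni1 was at 0.525, 0.605 and 0.317 FPKM with NFIA and at 7.13, 8.0 and 7.86 with Δpro#3.

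Myl4, the embryonic light chain, was higher by a log2 difference of 0.71 (1.14, 1.68 and 1.54 to 3.49, 2.54 and 3.02 FPKM), and Myh8, perinatal myosin, was below the filter of the fit, at 0.0127 to 0.0431 FPKM with NFIA and 0.182 to 0.282 with Δpro#3.

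None of the genes called here reached control levels, and no library of one group came near those of another. The controls had 243, 238 and 253 FPKM of Acta1, 370.4, 317 and 332 FPKM of Mylpf, 87.3, 79.6 and 78.3 FPKM of Myl1 and 95.9, 85.9 and 92.9 FPKM of Tnni1. Over the 38 sarcomere genes, the median log2 difference from control was -3.03 for NFIA and -2.12 for Δpro#3, and 36 of the 38 were lower than control by adjusted p in each of these 2 comparisons, which share the control libraries. Thus the mutant libraries held more sarcomere transcripts than those with full-length NFIA and fewer than the controls. In these bulk samples, fewer muscle-like cells and less of each transcript per cell cannot be told apart.

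**Figure D2:**
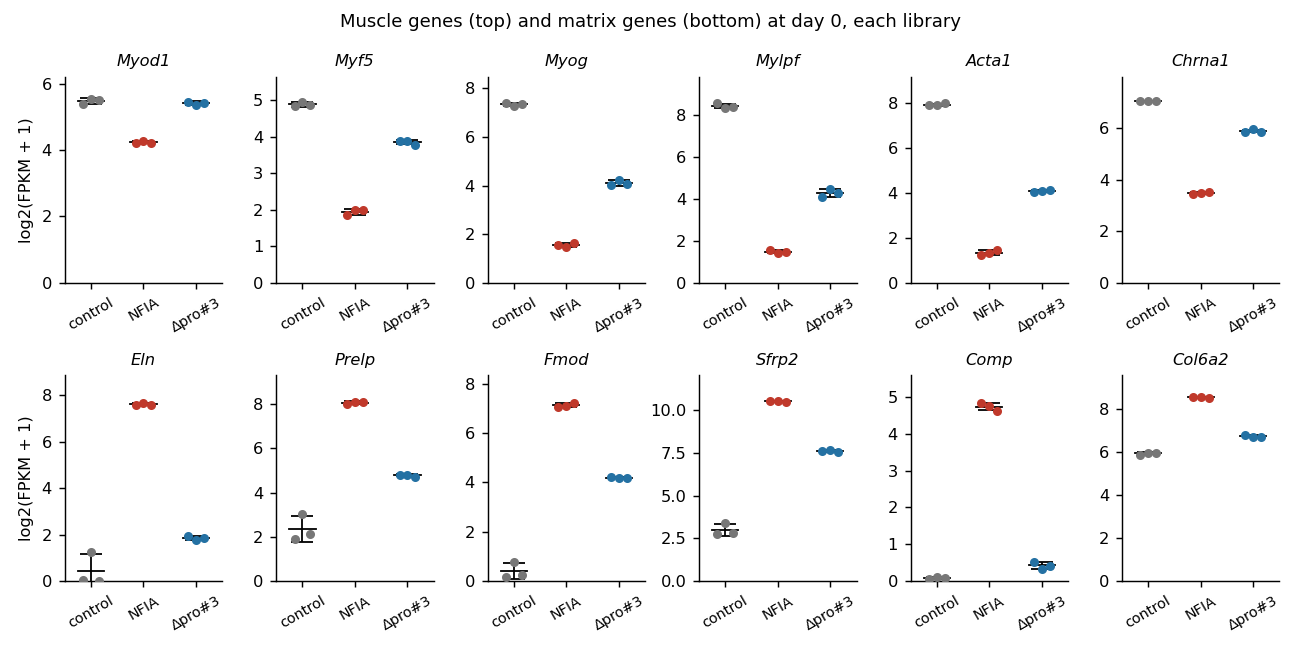
Expression of 6 muscle genes (top row) and 6 matrix or secreted genes (bottom row) in each day 0 library as log2(FPKM + 1), with a separate vertical axis for each gene starting at 0, points for the 3 replicates of a group and bars for the mean and SD. The Δpro#3 libraries lie between control and NFIA for 11 of the genes, and at the control level for Myod1.

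The promoters of 2 sarcomere genes are shown because members of the list moved together. They run from 250 bases before to 50 bases after the start, from RefSeq on GRCm38.p6 (Mylpf, chr7:127211358-127211657, plus strand, and Acta1, chr8:123894726-123895025, minus strand), with the E-box CAGCTG, the kind that MyoD and myogenin are known to bind, in capitals.
Mylpf: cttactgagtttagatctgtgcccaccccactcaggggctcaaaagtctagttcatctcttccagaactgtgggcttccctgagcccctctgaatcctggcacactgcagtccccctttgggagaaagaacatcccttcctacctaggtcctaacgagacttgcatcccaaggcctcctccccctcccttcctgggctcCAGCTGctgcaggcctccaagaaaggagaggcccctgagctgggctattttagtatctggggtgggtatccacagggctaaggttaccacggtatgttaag
Acta1: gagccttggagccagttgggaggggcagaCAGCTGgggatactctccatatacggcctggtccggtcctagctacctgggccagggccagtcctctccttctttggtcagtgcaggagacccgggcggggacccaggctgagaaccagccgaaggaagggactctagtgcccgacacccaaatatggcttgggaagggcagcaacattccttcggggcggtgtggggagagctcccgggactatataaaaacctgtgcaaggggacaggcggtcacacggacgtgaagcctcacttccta
Searched on both strands in these 300-base windows, CAGCTG was in 13 of 36 promoters of the sarcomere list (36.1%) and in 27 of 82 promoters of the genes called higher (32.9%). It was in 18 of 112 promoters of the genes called lower (16.1%), in 16.3% of all 32851 promoters and in 15.4% of those of the tested genes. The MEF2 motif (CTA and TAG with 4 bases between them) was in 5 of the 36 sarcomere promoters (13.9%), in 3.69% of all and in 2.99% of those of the tested genes. The full NFI palindrome (TTGGC and GCCAA with 5 bases between them) was in 12 of all promoters (0.0365%) and in 0 of those of called genes. A match is a description of the letters and not a binding site. Promoters were found for 72 of the 112 genes called higher and 97 of the 136 called lower.

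The genes of calcium release and of the nerve-muscle contact followed the sarcomere genes. Of 26 tested, 22 were higher, 3 lower and 1 did not pass, and 5 were called, all higher (median log2 difference 0.74). Chrna1, the α subunit of the muscle acetylcholine receptor, was at 9.85, 10.3 and 10.5 FPKM with NFIA, 57.5, 61.4 and 57.8 with Δpro#3 and 134 to 135 in the controls. Chrng, the fetal γ subunit, was at 0.284, 0.309 and 0.552 FPKM with NFIA and at 5.13, 5.57 and 5.72 with Δpro#3. Cacng1, a subunit of the muscle calcium channel, and Atp2a1, the fast muscle calcium pump, had log2 differences of 2.29 and 2.18. Dok7, an activator of the MuSK kinase, was one of the 3 that were lower (1.5 to 0.493 FPKM).

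Of 20 tested genes of myoblast fusion and adhesion, 13 were higher, 3 lower and 4 did not pass. Mymk, the myomaker fusogen, was called higher, at 0.261, 0.345 and 0.414 FPKM with NFIA and 3.94, 4.66 and 4.11 with Δpro#3, against 58.6 to 61.4 in the controls. Cdh15, the M-cadherin of myoblasts, was called higher from 16.4, 16.5 and 16.2 to 75.4, 76.1 and 73.6 FPKM (log2 difference 2.13 ± 0.03, limma, adjusted p = 3.1e-12). Adam12, a metalloprotease of regenerating muscle, went the other way, from 8.87, 9.18 and 9.74 FPKM with NFIA to 1.27, 0.933 and 1.05 with Δpro#3, below the 1.71 to 1.93 of the controls.

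Smooth muscle and SRF target genes were split, with 17 of 29 higher and 8 lower, and 0 were called. Cnn1, smooth muscle calponin, was lower (log2 difference -1.44), and so was Lmod1 (-1.22), while Myl9, the smooth muscle light chain, was higher (1.12).

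All 42 genes of the DNA replication and mitosis list were tested, and all 42 were lower with Δpro#3 by adjusted p, where the background was 31.9%. Their log2 differences ran from -1.62 to -0.60 with a median of -1.11, and 3 passed the fold. Mcm5, a subunit of the replicative helicase (chr8:77633427-77652338, NCBIM37), was at 40.4, 38.4 and 37.2 FPKM with NFIA and at 12.2, 11 and 13.3 with Δpro#3 (log2 difference -1.59 ± 0.06, limma, adjusted p = 4.9e-09). Tk1, thymidine kinase, went from 81.5, 74.7 and 74.8 FPKM to 24, 23.2 and 27.6, and Ccne2, cyclin E2, from 9.90, 9.26 and 10.3 FPKM to 2.31, 2.65 and 2.59. In all 3 genes the groups were wide apart, and the Δpro#3 values lay near those of the controls, which were 10.6 to 11.8 FPKM for Mcm5, 18.7 to 19.4 for Tk1 and 2.30 to 2.57 for Ccne2. Among mitotic genes, Mki67 fell from a mean of 60.1 to 24.3 FPKM, Top2a from 96.3 to 40.8 and Aurkb from 37.2 to 14.4.

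In the separate libraries, the median of the 42 genes relative to the control mean was 1.36, 1.32 and 1.27 with NFIA and 0.19, 0.14 and 0.27 with Δpro#3 on the log2 scale. All 42 genes were above control with NFIA by adjusted p, and 26 were above and 4 below control with Δpro#3. Of the regulators upstream of replication, Ccnd1, cyclin D1, was at 86.9, 87.8 and 86.1 FPKM with NFIA and 35.4, 35.3 and 36.9 with Δpro#3, overlapping the 33.3 to 35.6 of the controls. Ccnd2 was lower too (log2 difference -1.17), whereas Cdkn1a, the p21 inhibitor, was higher (41.1 to 72.2 FPKM) without reaching the control mean of 161. Of the 16 tested CDK inhibitors, D cyclins and pocket proteins, 5 were higher, 8 lower and 0 called.

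**Figure D3:**
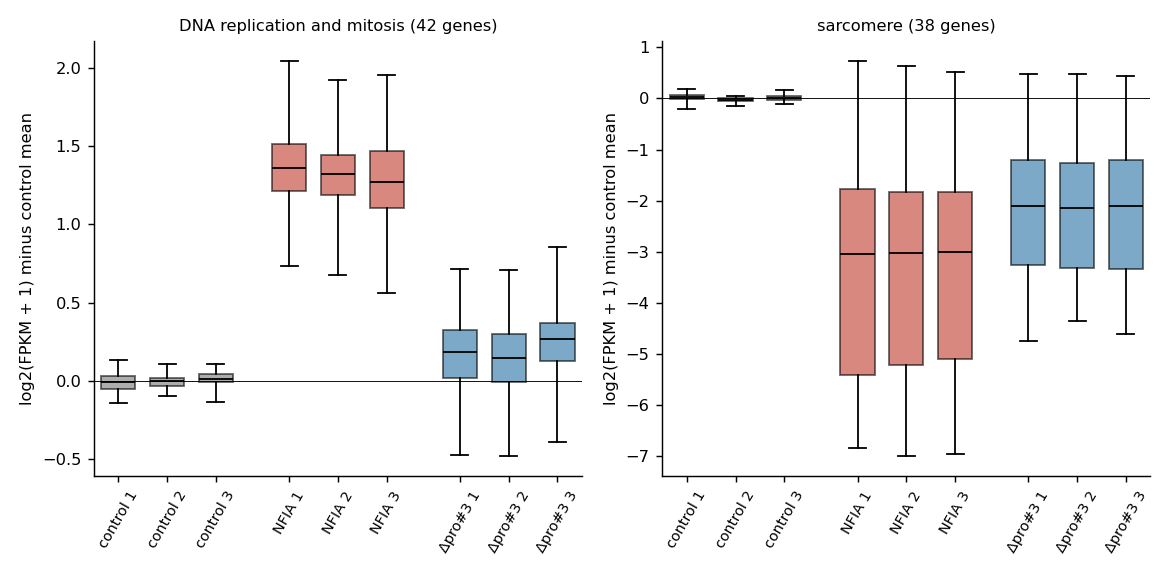
Expression of the 42 DNA replication and mitosis genes (left) and the 38 tested sarcomere genes (right) in each day 0 library, as log2(FPKM + 1) minus the gene's control mean, with boxes for the median and quartiles over genes and whiskers for the lowest and highest gene. The Δpro#3 boxes lie close to control on the left and between control and NFIA on the right.

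Promoters of 2 helicase subunits are shown for the same reason as above, from RefSeq on GRCm38.p6 (Mcm5, chr8:75109259-75109558, plus strand, and Mcm3, chr1:20820263-20820562, minus strand). Capitals mark matches to the E2F letters TTTNGCGC. Mcm5 holds 2 matches, 1 on each strand, that overlap.
Mcm5: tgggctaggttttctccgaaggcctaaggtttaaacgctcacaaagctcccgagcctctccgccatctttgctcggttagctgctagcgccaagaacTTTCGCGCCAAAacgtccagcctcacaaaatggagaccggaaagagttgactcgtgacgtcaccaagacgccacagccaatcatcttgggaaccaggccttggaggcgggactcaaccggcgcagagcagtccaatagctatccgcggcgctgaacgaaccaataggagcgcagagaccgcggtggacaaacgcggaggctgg
Mcm3: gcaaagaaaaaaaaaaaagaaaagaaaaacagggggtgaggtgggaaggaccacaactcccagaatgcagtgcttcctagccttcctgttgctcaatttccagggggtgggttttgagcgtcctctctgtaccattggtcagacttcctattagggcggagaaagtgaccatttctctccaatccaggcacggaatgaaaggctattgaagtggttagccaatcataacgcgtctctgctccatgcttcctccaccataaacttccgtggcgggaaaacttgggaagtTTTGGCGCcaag
The E2F letters were in 7 of 32 promoters of the list (21.9%), in 1.38% of all promoters and in 2.46% of those of the tested genes. TTTGAA, the core of the element of late cell cycle genes, was in 11 of the 32 (34.4%), in 17.9% of all and in 11.8% of those of the tested genes.

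Among the genes lower with Δpro#3, matrix genes had the largest differences. Of 28 tested elastic fibre genes and small leucine-rich proteoglycans, 19 were lower, 7 higher and 2 did not pass, and 6 were called lower and 1 higher (median log2 difference -0.55). Eln (chr5:135179651-135223111, NCBIM37), which encodes tropoelastin, the core of elastic fibres, was at 191, 199.7 and 193 FPKM with NFIA and at 2.81, 2.42 and 2.66 with Δpro#3, a log2 difference of -5.75 ± 0.26 (limma, adjusted p = 1.3e-08). This was the largest difference among the genes named. Prelp, a proteoglycan that anchors basement membrane to collagen, went from 256, 274 and 276 FPKM to 27.0, 27.0 and 25.5, and Fmod, fibromodulin, a regulator of collagen fibrils, from 134, 136 and 148 FPKM to 17.8, 17.4 and 17.1. Both stayed well above the controls, which were at 2.70, 7.09 and 3.36 FPKM for Prelp and 0.135, 0.717 and 0.184 for Fmod.

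Ltbp2, a microfibril protein, went from 91.5, 84.1 and 84.9 FPKM to 10.9, 9.99 and 11.1, which was below the 16.1 to 18.6 of the controls. The other 2 called lower were Fbln5, an organizer of elastic fibres (62.8 to 8.44 FPKM on average), and Omd, osteomodulin (28.0 to 6.26 FPKM). Efemp1, fibulin-3, was called higher, from a mean of 1.68 to 9.99 FPKM. Lox, the enzyme that cross-links elastin and collagen, was lower (706 to 346 FPKM, log2 difference -1.03), while Loxl2 was higher (9.34 to 18.2 FPKM).

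Among 25 tested collagen chains, 14 were lower, 9 higher and 2 did not pass, with 4 called lower and 0 called higher. Col6a2, a chain of the beaded filaments of collagen VI, was at 369.5, 372 and 362 FPKM with NFIA and 108, 102 and 104 with Δpro#3, and Col6a1, its partner chain, fell from a mean of 872 to 332 FPKM without passing the fold. Col6a3 was higher (104 to 154 FPKM). Col2a1, the fibrillar collagen of cartilage, was at 7.62, 6.79 and 5.97 FPKM with NFIA and below 0.1 in each of the 3 Δpro#3 and 3 control libraries. Col11a1, which joins collagen II in fibrils, went from 12.9, 12.4 and 11.8 FPKM to 0.918, 0.781 and 1.01.

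Of 35 other matrix glycoproteins and proteases, 17 were lower, 12 higher and 6 did not pass, with 4 called lower and 2 called higher. Over all genes tested, 31.9% were lower and 33.4% higher. Comp, the cartilage oligomeric matrix protein, was at 27.3, 26.1 and 23.8 FPKM with NFIA and at 0.433, 0.268 and 0.334 with Δpro#3, and in the controls at 0.0348 to 0.0757. Timp3, a matrix-bound inhibitor of metalloproteases, fell from 346, 363 and 385 FPKM to 94.8, 98.9 and 93.0, and Adamts9 by a log2 difference of -2.37. Mgp, the matrix Gla protein that inhibits calcification, was called higher, from 69.8, 78.0 and 69.8 FPKM with NFIA to 331, 343 and 340.0, while the controls held 1161 to 1261 FPKM. Nid1, a basement membrane linker, was the other gene called higher (94.9 to 312 FPKM).

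Integrins and laminins were more often higher, 16 of 23 against 5 lower. Itgb7 was called higher (0.496, 0.548 and 0.760 FPKM to 7.32, 6.39 and 7.59) and Itga1, a collagen receptor subunit, lower (7.73, 8.25 and 8.18 FPKM to 1.11, 0.952 and 0.922).

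Secreted antagonists of Wnt signalling moved in both directions. Sfrp2, a secreted Frizzled-related protein, was the most abundant transcript among the genes called lower by mean, at 1487, 1503 and 1462 FPKM with NFIA, 199.8, 202 and 188 with Δpro#3 and 5.79, 9.45 and 5.96 in the controls. Its log2 difference of -2.91 ± 0.13 (limma, adjusted p = 1.2e-08) still left Δpro#3 cells 4.64 above control on the log2 scale. Sfrp1 was at 13.7, 14.4 and 15.1 FPKM with NFIA and below 0.8 with Δpro#3. Sfrp4 was the opposite, at 10.9, 10.9 and 12.6 FPKM with NFIA and 48.6, 46.3 and 48.4 with Δpro#3, above the controls (2.95, 3.95 and 3.10). Wisp2, a connective tissue growth factor relative, was at 41.2, 42.3 and 49.7 FPKM with NFIA, and its Δpro#3 values of 5.25, 4.79 and 5.04 overlapped those of the controls. Over the list, 9 of 18 tested genes were higher and 9 lower, with 2 and 3 called.

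Of 17 tested genes of the IGF axis, 10 were higher and 6 lower, and 3 and 4 were called. Igfbp5, a binding protein that rises in differentiating myoblasts, went from 20.8, 22.7 and 24.6 FPKM with NFIA to 153, 160.0 and 151 with Δpro#3, against 671 to 725 in the controls. H19, an imprinted non-coding RNA of muscle, was at 233, 260.3 and 240.2 FPKM with NFIA and 1042, 1041 and 985 with Δpro#3. Igf1 itself was called lower (27.2, 26.7 and 31.8 FPKM to 6.49, 7.0 and 6.53), and so was Pappa2, a protease that cleaves IGF-binding proteins, from 11.9, 11.1 and 12.2 FPKM to 0.213, 0.223 and 0.234.

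In the TGF-beta superfamily (10 of 27 higher, 9 lower, 8 not passed), Inhbb, the βB subunit of activin, was called higher, from 4.75, 5.05 and 4.71 FPKM with NFIA to 41.1, 41.2 and 39.6 with Δpro#3. The controls, at 32.5 to 33.4 FPKM, were slightly lower than the mutant. Grem1, a BMP antagonist, was called higher (13.2, 12.3 and 12.2 FPKM to 50.9, 51.2 and 48.2) and overlapped the controls at 49.5 to 52.2. Fst, follistatin, which binds activin, was called lower (37.0, 35.3 and 39.6 FPKM to 7.75, 8.71 and 8.18).

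Of 30 tested genes of FGF, PDGF and related growth factor signalling, 17 were lower and 10 higher. Gas6, the ligand of the TAM receptor kinases, was called lower, at 98.2, 101 and 106 FPKM with NFIA and 7.76, 8.22 and 7.01 with Δpro#3, against 2.23 to 2.59 in the controls. Pdgfd was called higher (log2 difference 1.78).

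Chemokines, cytokines and their receptors were divided, with 14 of 30 tested genes higher, 10 lower and 6 not passed. Il1rn, the interleukin-1 receptor antagonist, was the single gene called lower, at 57.5, 57.9 and 61.8 FPKM with NFIA and 3.46, 3.36 and 3.40 with Δpro#3. The Δpro#3 values overlapped the 3.20 to 3.49 FPKM of the controls, and their difference from control was 0.02 on the log2 scale (limma, adjusted p = 0.75). Il33, an alarmin, was called higher, from 8.49, 9.45 and 9.98 FPKM to 53.7, 57.3 and 51.6, above the controls at 31.6 to 34.1. Ackr3, a scavenger of CXCL12, rose from 2.91, 3.20 and 3.54 FPKM to 19.8, 21.2 and 19.7, and Ptgs1, cyclooxygenase-1, from 37.9, 38.3 and 39.3 FPKM to 134, 129 and 133.

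The largest rise among the genes named was that of Csf2rb, the common β subunit of the receptors for GM-CSF, IL-3 and IL-5 (chr15:78156420-78184277, NCBIM37). It was at 0.752, 1.46 and 1.20 FPKM with NFIA, 26.7, 31.0 and 26.6 with Δpro#3 and 2.82, 3.31 and 2.81 in the controls, so the mutant stood above both. Its log2 difference was 3.78 ± 0.11 (limma, adjusted p = 6.4e-10), and 17.5% of its 50-base words are shared with other genes, its copy Csf2rb2 among them. Plac8, a small cysteine-rich protein, went from 0.448, 0.683 and 0.634 FPKM to 17.3, 15.5 and 15.9, below the controls at 34.9 to 37.9. Car3, the carbonic anhydrase of muscle and fat, was at 28.2, 35.4 and 43.9 FPKM with NFIA and at 321, 353 and 318 with Δpro#3, just above the controls (298 to 315), from which it did not differ by the test (0.10, limma, adjusted p = 0.47). Msln, mesothelin, and Enho, the peptide adropin, rose to 30.7, 30.8 and 30.9 FPKM and to 16.5, 16.4 and 16.1 FPKM, from below 3.3 and below 1.7 in every NFIA library.

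Gm5662, called higher from 0.381, 0.431 and 0.672 FPKM to 10.5, 11.8 and 10.6, shares 67.9% of its 50-base words with other genes of the Eif1a family, and Gm6093, at 0 FPKM in all 3 NFIA libraries, was at 6.66, 6.61 and 6.77 with Δpro#3. Words of 50 bases were shared with other genes at over 20% for 9 of the 230 called genes that had a transcript to compare, among them Prl2c2, Gm2016, Gm5662, Ramp2, Gm8300, Clca2, Krt83 and Orm1, and these stay uncertain.

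The largest falls also included the genes given next, several of them for secreted proteins. Smoc1, a BMP-modulating matrix protein, was at 28.6, 30.7 and 31.9 FPKM with NFIA and 0.196, 0.174 and 0.143 with Δpro#3, a log2 difference of -4.74 ± 0.05 (limma, adjusted p = 2.7e-12), and at 0.109 to 0.158 in the controls. Cilp, a cartilage intermediate layer protein, fell from 24.1, 24.3 and 26.3 FPKM to 1.02, 0.921 and 0.975, and Agt, angiotensinogen, from 22.1, 24.5 and 27.0 FPKM to 1.22, 0.973 and 0.923. Slpi, a secreted protease inhibitor, went from 53.8, 49.0 and 50.3 FPKM to 4.17, 3.67 and 2.73, below the 7.29 to 9.53 of the controls. The uncharacterized gene 1500015O10Rik was at 22.7, 22.9 and 27.8 FPKM with NFIA and 0.977, 0.870 and 1.13 with Δpro#3. Npr3, the clearance receptor for natriuretic peptides, went from 35.9, 34.3 and 35.0 FPKM to 2.81, 2.36 and 2.49. Against the controls, the Δpro#3 libraries were higher for Cilp, Agt and Npr3 and lower for Slpi by adjusted p, and for Smoc1 the difference did not pass (limma, adjusted p = 0.36).

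Adipogenic genes were lower with Δpro#3 in the majority, where 31.9% of all genes tested were lower. The median differences were small at this stage, while single genes such as Cebpa and Zfp423 differed by more. Among 22 tested adipogenic transcription factors, 12 were lower, 5 higher and 5 did not pass, and 0 were called (median log2 difference -0.23). Pparg, the master regulator of fat cells, was at 12.9, 13.6 and 16 FPKM with NFIA, 8.98, 8.61 and 9.0 with Δpro#3 and 2.43, 2.24 and 2.09 in the controls, so that the 3 groups were apart and the mutant lay between (log2 difference -0.62 ± 0.07, limma, adjusted p = 1.9e-05). Cebpa, its partner in fat cells, was at 40.8, 42.1 and 34.0 FPKM with NFIA and 17.2, 14.7 and 16 with Δpro#3, above the controls at 6.18 to 7.28. Zfp423, a preadipocyte factor, had a log2 difference of -1.29. Klf5 was higher with Δpro#3 (1.06 to 2.51 FPKM on average), below the control mean of 10.5.

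Of 25 tested adipocyte lipid genes, 13 were lower, 6 higher and 6 did not pass. Plin4, a lipid droplet coat protein, was the single one called, from 47.7, 53.7 and 57.7 FPKM to 15.2, 16.1 and 15.5. Fabp4 had a log2 difference of -1.54 ± 0.48 (limma, adjusted p = 0.016), which ranged from -2.06 without Δpro#3 replicate 1 to -0.81 without replicate 2. Lpl, lipoprotein lipase, was nearly as abundant with the mutant (383 and 298 FPKM, against 34.6 in the controls), and Plin2, Dgat2 and Pnpla2 were higher with Δpro#3 (log2 differences 0.75, 1.06 and 0.69).

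The other NFI genes were lower with Δpro#3. Nfix was at 69.3, 70.0 and 69.2 FPKM with NFIA and 39.8, 38.8 and 38.8 with Δpro#3, close to the controls at 38.2 to 44.0, and Nfic and Nfib had log2 differences of -0.61 and -0.42.

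In the lists not yet named, both directions occurred and calls were few. Of 41 tested semaphorins, ephrins and axon guidance genes, 17 were higher and 18 lower, and Sema5a (called, log2 difference 2.59) and Sema3f (called, -2.05) were the widest apart. Interferon-stimulated genes had 15 of 32 lower and 7 higher with 0 called, MHC class I genes 3 of 10 lower and 2 higher, complement genes 6 of 13 higher and 2 lower, Notch pathway genes 7 of 16 lower and 6 higher, and Kruppel-like factors 10 of 17 higher and 3 lower. Of 24 stress genes, 14 were lower and 3 higher. Hspa5, the chaperone BiP of the endoplasmic reticulum, was at 581, 554 and 541 FPKM with NFIA and 249, 245 and 256 with Δpro#3, overlapping the controls (246 to 262). Nqo1, an oxidative stress gene, was lower too (30.9 to 13.7 FPKM).

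**Figure D4:**
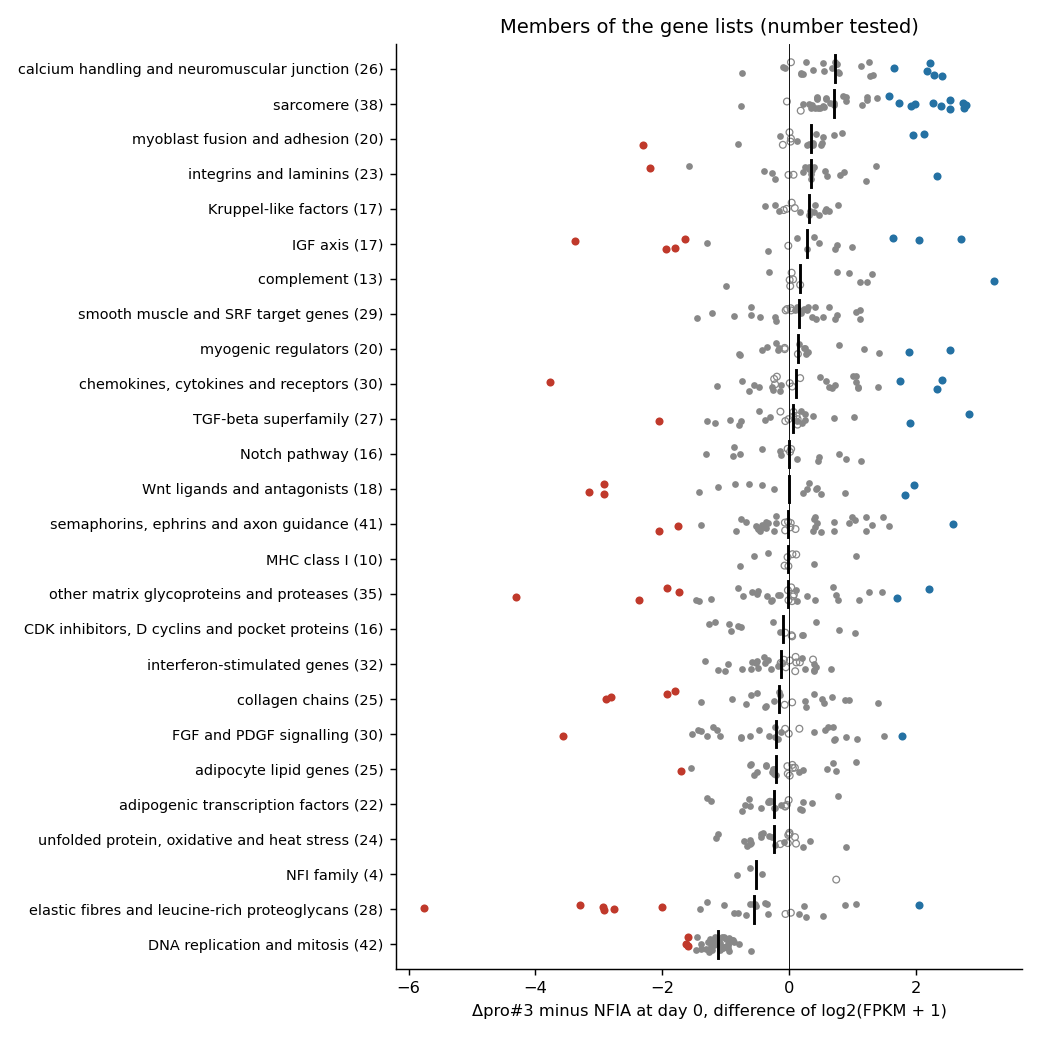
Log2 differences (Δpro#3 minus NFIA of log2(FPKM + 1), day 0) of the tested members of the 26 gene lists, ordered by the list's median (black bar), with open points for genes that did not pass adjusted p under 0.05, grey points for those that did, and blue and red points for genes called higher and lower. All 42 replication and mitosis genes lie left of 0, and 35 of the 38 sarcomere genes are higher.

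The markers of the line were present. All 10 skeletal myoblast markers were detected at 0.5 FPKM or more in at least 1 of the libraries used, 7 were higher and 2 lower with Δpro#3, and 3 were called higher (Chrna1, Cdh15 and Myf5), with a median log2 difference of 0.95. Endothelial markers were below 0.5 FPKM everywhere for 7 of 8 and none was tested, macrophage and leukocyte markers for 9 of 12, and epithelial markers for 6 of 7. Some markers of other lineages moved with the groups. Alpl, alkaline phosphatase of bone, was called lower (4.74, 4.02 and 4.92 FPKM to 0.0509, 0.0755 and 0.0143), Lyz2, lysozyme, was lower (9.82, 9.67 and 10.3 FPKM to 4.06, 3.92 and 4.27), and Krt19, a keratin, was called higher (2.54, 2.69 and 2.69 FPKM to 13.6, 13.9 and 14.6). Of the 2 tested chondrocyte markers, both were lower, Col2a1 and Sox9 (33.4 to 14.4 FPKM). Among 10 tested mesenchymal and adipocyte progenitor markers, 5 were higher, Ly6a among them (334, 345 and 371 FPKM to 707, 724 and 715), and 2 lower, Cd34 among them (197, 199.5 and 198 FPKM to 96.0, 101 and 97.7). The 1 tested tenocyte marker, Scx, was lower (31.3 to 15.7 FPKM), 2 of 6 osteoblast markers were higher and 4 lower, and of 3 tested macrophage markers 2 were higher and 1 lower. Of 5 neural markers 3 were higher and 1 lower, and Nefl, a neurofilament, was called higher (0.702, 0.574 and 0.883 FPKM to 4.24, 4.04 and 4.82). The part that such cells might have in the results was not tested.

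The libraries of day 7 are other samples of cells with the same pair of proteins, after 7 days of adipogenic culture. Whether they came from separately transduced cells is not given in the sources used here, so a difference between the proteins and one between the cell lines cannot be told apart at either time. Nfia was at 457, 528 and 460 FPKM with NFIA and at 480, 383 and 374 with Δpro#3 at day 7. The groups thus overlapped for Nfia, unlike at day 0, and the part of this level in changes between the times was not tested. Of the 112 genes called higher at day 0, 58 were also called higher at day 7, and of the 136 called lower, 58 were also called lower. That is 51.8% and 42.6% of the day 0 sets and 18.1% and 12.7% of the 320 and 456 genes called at day 7, where 2.60% and 3.70% of all genes tested were called. In the opposite direction 2 and 1 were called. Leaving out each day 7 library in turn, an alternative chosen after seeing the data, gave 54 to 59 and 56 to 62 genes called at both times. Δpro#3 replicate 1 of day 7 stood apart in fat genes (Fabp4 at 1415 FPKM against 294 and 354), and without it the counts were 58 and 62.

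Several muscle and matrix genes called at day 0 differed in the same direction at day 7, some by more than at day 0. Myl1 was at 296, 226 and 254 FPKM with NFIA and 3934, 3682 and 3477 with Δpro#3 (log2 difference 3.84, against 2.77 at day 0), and Acta1 at 837, 653 and 692 and 5099, 4682 and 4715 FPKM, the difference of 2.74 being within its error of that at day 0. Smoc1 (log2 difference -4.66), Comp (-4.38) and Gas6 (-4.23) were again lower in all Δpro#3 libraries. In the sarcomere list, 38 of 38 were higher with Δpro#3 at day 7 (median 2.61, against 0.71 at day 0), and in the adipocyte lipid list 24 of 25 were lower (median -2.92, against -0.20 at day 0). The replication list had 9 of 41 lower and 4 higher (median -0.09).

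The change between the times was tested for the 248 genes. For 197 of them the difference between Δpro#3 and NFIA changed from day 0 to day 7 by adjusted p (limma over 18 libraries, against 63.5% of all 12408 genes tested), 83 among those called higher and 114 among those called lower. In 63 and 90 of these the change was toward 0. The day 0 libraries that chose the genes are part of this test, so nothing is read from the direction of the change. Eln ended at 8.55, 11.5 and 8.46 FPKM with NFIA and 7.74, 7.79 and 7.22 with Δpro#3, no longer apart by more than a log2 difference of -0.28.

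**Figure D5:**
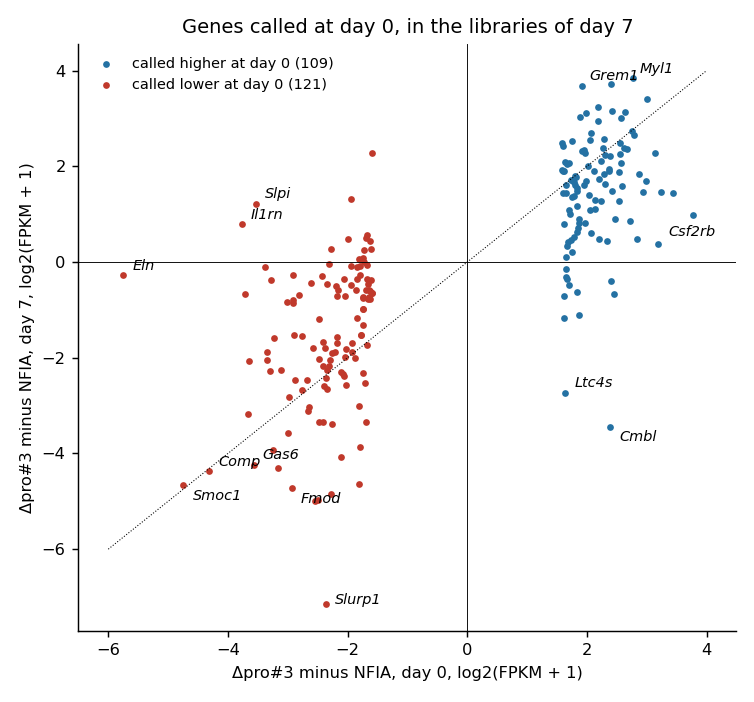
Log2 differences (Δpro#3 minus NFIA of log2(FPKM + 1)) at day 0 (horizontal axis) and day 7 (vertical axis) of the genes called at day 0 that were also tested at day 7, 109 called higher (blue) and 121 called lower (red), with a dotted line of equal difference. Most points keep their sign, Smoc1, Comp and Myl1 lie near or beyond the dotted line, and Eln, Il1rn, Slpi, Cmbl and Ltc4s lie far from it.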

How the data were processed

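RNA-seq of polyadenylated RNA (TruSeq Stranded mRNA kit) was made from all 27 samples, of which the 18 of control, NFIA and Δpro#3 cells at day 0 and day 7 (3 replicates each) were used. The authors aligned reads to mm9 with STAR 2.5.3a, kept uniquely mapped reads, counted only same-strand reads, and deposited FPKM for every gene in every sample, with no scaling between samples. The forskolin samples were not used here. Groups and replicates came from the labels. All deposited FPKM values were whole multiples of 1 fragment (100%, tolerance 0.05), which gave the fragments per gene and the depth. 26 gene symbols had turned into dates and 2 occurred again. All were kept.

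With R 4.3.3 and limma 3.58.1, log2(FPKM + 1) of the 9 day 0 libraries was fitted with 1 mean per group and moderated variances with a trend, over genes averaging at least 0.5 FPKM (12105; 12324 at day 7 and 12408 over both times). The 2-sided p-values received the Benjamini-Hochberg adjustment. Fold changes are on the FPKM + 1 scale, which understates those of low genes. Values given as a fall or rise from one FPKM to another without replicates are group means. Of 922 entries in 26 gene lists and 9 marker lists, 921 were found. The members and lists were chosen with earlier results of these data known, and so were the promoter motifs. The genes named are the 12 with the largest rise and the 12 with the largest fall among called genes that averaged at least 1 FPKM and did not overlap, the called or leading members of each list, genes of the study's question, and the 3 with the largest change either way between the times. Further list members were named after their values were seen. One gene that this rule names is not reported here. On simulated data (200 genes changed among 12094), 95.5% of genes changed 5- or 10-fold were called and 0 unchanged genes. For the change between the times these were 99.2% and 22 unchanged genes, among 12400. The changed genes were drawn only from genes with a higher mean FPKM than the filter required, and the spread between replicates was a set value. These shares therefore do not cover the lowest genes tested. Same-numbered replicates of different groups did not deviate together (mean r 0.01, -0.05 to 0.08 over 9 pairs), so numbers were not used as pairs. Promoters came from RefSeq (GRCm38.p6), other coordinates from the NCBIM37 annotation, and figures from Python 3.11.15 with matplotlib 3.10.9.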

Additional observations from a re-analysis of the deposited data

Results flagged for a closer look

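The difference between Δpro#3 and NFIA changed between day 0 and day 7 for 197 of the 248 called genes, by a test of the change itself (limma over 18 libraries, adjusted p under 0.05), where 63.5% of all 12408 genes tested passed. The day 0 libraries that chose the genes are part of this test. The 6 genes named here had the largest changes, and the values are day 7 minus day 0 of the log2 difference. Eln changed by 5.47, from -5.75 to -0.28, as its NFIA level went from a mean of 194 FPKM at day 0 to 8.55, 11.5 and 8.46 at day 7. Slpi, the protease inhibitor, changed by 4.76 and Il1rn by 4.56, and both were higher with Δpro#3 at day 7 (limma, adjusted p = 2.7e-04 and 0.011), having been lower at day 0: Slpi was at 2.86, 1.72 and 2.60 FPKM with NFIA and 7.07, 7.08 and 6.32 with Δpro#3 at day 7, and Il1rn at 10.6, 4.78 and 5.95 and at 15.6, 10.7 and 11.5 FPKM. Cmbl, carboxymethylenebutenolidase, changed by -5.84, from 5.78, 6.44 and 5.44 FPKM with NFIA and 35.8, 35.6 and 34.0 with Δpro#3 at day 0 to 376, 422 and 372 and 41.4, 31.0 and 32.9 at day 7. Ltc4s, leukotriene C4 synthase, changed by -4.37, with 40.9, 34.6 and 35.7 FPKM of NFIA and 6.97, 4.21 and 3.51 of Δpro#3 libraries at day 7. Slurp1 changed by -4.79, lower with Δpro#3 at both times, and at day 7 was at 158, 161 and 170.4 FPKM with NFIA and below 0.22 with Δpro#3.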

How the results depend on the processing

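No called gene reversed under any alternative. Of the list results under the alternatives, 1649 stayed the same, 146 were stronger, 12 weaker and 131 moved in another way. For Nfia, the adjusted p of 0.244 by limma became 3.6e-06 with the NFIA and Δpro#3 libraries alone. The 112 genes called higher and 136 called lower became 293 and 247 with a pseudocount of 0.1, 319 and 268 with limma-voom on the recovered fragments, 338 and 459 at 2-fold, 4043 and 3866 by adjusted p alone, and 86 and 78 among genes averaging at least 5 FPKM, where 84 of the 248 were not tested. The log2 size of a called gene was more than 1.5 times larger for 54 genes with the pseudocount of 0.1 and for 66 with limma-voom. Without a filter, without a trend, after median-ratio scaling and with the NFIA and Δpro#3 libraries alone both counts were unchanged. Leaving out each library in turn gave 110 to 116 higher, 134 to 138 lower, and 189 to 200 genes whose difference changed between the times, against 197. Of the 248 calls, 2 to 9 were lost without 1 NFIA or Δpro#3 library and 0 without a control. The genes called at both times numbered 54 to 59 and 56 to 62 without 1 day 7 library. With the replicate block the counts were 112, 136 and 197, so it changed none of these counts. Depth limits low genes: in the smallest library, NFIA replicate 3, 1 fragment weighs most.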

Other observations

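Of the 248 called genes, 72 were in a list, and the genes in this and the next paragraph were picked from the rest after their values were seen, other than Zim1 and Crabp1, which are among the largest changes. Further muscle genes were called higher with Δpro#3, each below its control mean: Popdc3 and Bves, membrane proteins of the Popeye family (12 to 61.7 and 14.4 to 48.9 FPKM, NFIA and Δpro#3 means), Klhl30 (0.168 to 5.98 FPKM), Jsrp1, a protein of the calcium release unit (1.75 to 10.9 FPKM), Trim55, a muscle RING finger protein (0.390 to 4.69 FPKM), and Fbxo32, the ubiquitin ligase atrogin-1 (3.20 to 13.7 FPKM). The imprinted neighbours Zim1 and Peg3 on chromosome 7 were both called higher, Zim1 at 1.38, 1.71 and 1.59 FPKM with NFIA and 22.7, 20.8 and 21.1 with Δpro#3, and Peg3 from a mean of 8.96 to 50.2 FPKM. Alox5, the 5-lipoxygenase that makes leukotrienes, rose from a mean of 1.35 to 12.6 FPKM and Hpgd, which inactivates prostaglandins, from 0.835 to 6.42 FPKM.

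Among single genes called lower, Crabp1, a retinoic acid carrier, was at 13.0, 12.3 and 14.6 FPKM with NFIA and 0.285, 0.456 and 0.481 with Δpro#3. The retinal dehydrogenase gene Aldh1a1 went from a mean of 7.50 to 0.977 FPKM, while its relative Aldh1a3 was higher with Δpro#3 (1.86 to 4.68 FPKM). Adh1 went from a mean of 8.35 to 0.937 FPKM, Apln, apelin, from 14.2 to 2.60 FPKM, Vipr1 from 6.34 to 0.310 FPKM and Avpr1a from 4.21 to 0.619 FPKM, while Ednra, an endothelin receptor, was called higher (1.34 to 6.52 FPKM). Angpt4, an angiopoietin, fell from a mean of 223 to 22.6 FPKM, Nov, a matricellular protein, from 337 to 107 FPKM, and Sod3, the extracellular superoxide dismutase, from 121 to 12 FPKM. Uhrf1 and Asf1b, which act in chromatin duplication, fell from 49.3 to 14.9 and from 34.2 to 9.09 FPKM, beside the replication genes of the list. Tmsb4x, thymosin β4, was the most abundant transcript among the genes called higher by its Δpro#3 mean (452 to 1418 FPKM).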
